A study of Homo sapiens with 9 samples.

Results

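Gene expression was compared between 3 libraries that were labelled with an shRNA against DEK and had a low DEK signal, and 2 libraries that were labelled with the empty vector and had a high DEK signal. A library here is the RNA of 1 sample on 1 array. The compared libraries were 5 of the 9 in the study and were chosen by the measured signal of the DEK probe together with the label: those labelled shDEK14 or shDEK17 below 1000 (shDEK14 replicate 2, shDEK17 replicates 1 and 3) and those labelled shEMPTY above 1000 (replicates 1 and 3). They are called low-DEK shRNA and shEMPTY libraries below. The DEK signal chose the libraries, so DEK is described without a test and was taken out of all tests. Each p-value below compares libraries chosen in this way.

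All libraries came from U937, an established human myeloid line from a histiocytic lymphoma. The cells received lentivirus that carried 1 of 2 shRNAs against the DEK transcript under an H1 promoter (shDEK14, shDEK17) or the vector without shRNA (shEMPTY). All carried the GFP marker of the vector, by which they were sorted after 48 h, and RNA was taken after 4 more days in culture. The low-DEK shRNA group mixed 1 shDEK14 library with 2 shDEK17 libraries, and the virus of every group was packaged in a human embryonic kidney line. Whether replicates were separate transductions is not given. The p-values therefore reflect only how far these arrays differed, and part of that may be technical.

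DEK is an abundant nuclear protein that binds DNA and nucleosomes, acts as a histone chaperone and takes part in splicing, and it was found as part of the DEK-NUP214 fusion of acute myeloid leukemia. An shRNA is processed by the cell into a small RNA that guides cleavage of the matching transcript. U937 cells resemble an early stage of the monocyte line. Cells of that stage store proteins such as myeloperoxidase and the protease elastase in azurophil granules.

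DEK was represented by 1 named probe. Its deposited intensity was 359.4, 431.6 and 532.0 in shDEK14 replicate 2, shDEK17 replicate 1 and shDEK17 replicate 3, against 2510 and 2580 in shEMPTY replicates 1 and 3. In the scaled values the mean of the low-DEK shRNA libraries was 16.9% of the mean of the shEMPTY libraries. The libraries nearest to the limit over all 9 were shDEK17 replicate 3 at 532.0 on the low side and shDEK17 replicate 2 at 1890 on the high side, a gap of 3.55-fold. The 4 libraries left out carried labels that the DEK signal went against, with 1890 to 2826 in 3 libraries labelled with an shRNA (shDEK14 replicates 1 and 3, shDEK17 replicate 2) and 293.9 in shEMPTY replicate 2. These 4 are used below only to describe where their values lay.

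**Figure D1:**
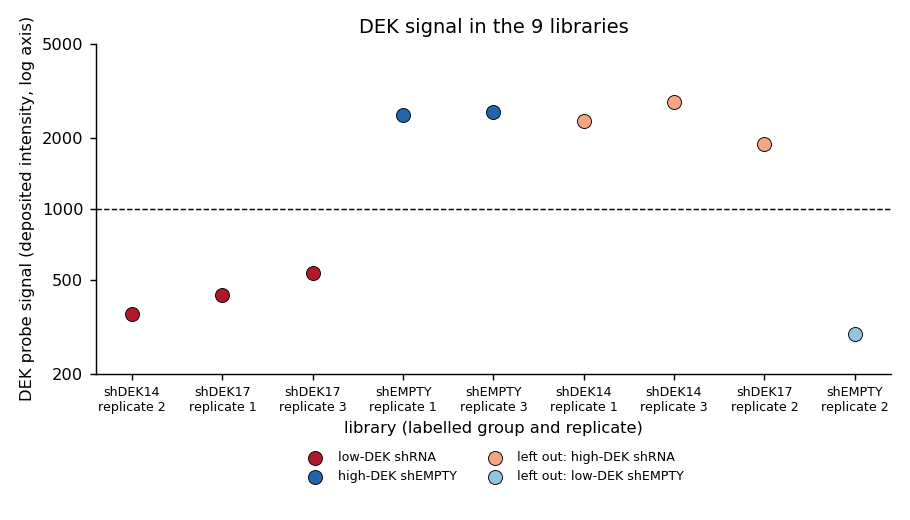
Deposited DEK probe intensity (log axis) in the 9 libraries, 1 point per library, with the dashed line at the limit of 1000. The 3 low-DEK shRNA libraries lie between 359.4 and 532.0 and the 2 shEMPTY libraries compared with them at 2510 and 2580.

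Probes detected above the negative controls numbered 12729 to 14152 per array over the series, and 12729, 13056 and 13138 in the low-DEK shRNA libraries against 13572 and 13605 in the shEMPTY libraries, so that every low-DEK shRNA library had fewer detected probes than either shEMPTY library. The part of this gap in the results was not tested. Across genes, array pairs correlated at r = 0.972 to 0.988 within the low-DEK shRNA libraries, 0.986 within the shEMPTY libraries and 0.977 to 0.988 between them. Libraries of different groups were therefore no less alike than libraries of 1 group. The myeloid genes SPI1, MPO, LYZ and CD4 were detected on all 5 arrays. PTPRC, the CD45 gene of leukocytes, was by contrast detected on 0 of 5 with its 4 probes. CD3E and CD3D of T cells, MS4A1 of B cells and the globin HBB were detected on 0 of 5. The same held for the epithelial gene EPCAM and the fibroblast collagen COL1A1. In these bulk samples, fewer cells of a type and less RNA per cell cannot be told apart.

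No tested gene passed the threshold. With limma, 0 of 8610 genes (0%) had an adjusted p under 0.05, and the lowest adjusted p was 0.417. With the replicate number as a block the count was also 0. A block that crossed the numbers of the shDEK17 and shEMPTY libraries, chosen after seeing the data, called 35 genes higher and 18 lower. Before adjustment, 425 genes had a p under 0.05, with 142 higher and 283 lower in the low-DEK shRNA libraries, where 5% of the genes tested would be 430.5. The test named in the study's methods, run gene by gene, gave 426 genes at that level and also 0 after adjustment. What follows therefore describes levels and names genes by size and by whether the groups overlap. A gene is called without overlap where all 3 low-DEK shRNA libraries lay on 1 side of both shEMPTY libraries. With 3 libraries against 2, many genes meet this by the order of their values alone. Without overlap were 626 genes that were higher (7.27% of those tested) and 1149 that were lower (13.3%). Of these, 14 were at least 1.5-fold higher (0.163%) and 31 at least 1.5-fold lower (0.36%). The balance depended on the scaling. Without overlap, 843 genes were higher and 879 lower after quantile normalization, and 927 and 777 after centring on the median. At 1.5-fold these gave 20 and 20, and 21 and 18. The median log2 fold change over all genes was -0.04.

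**Figure D2:**
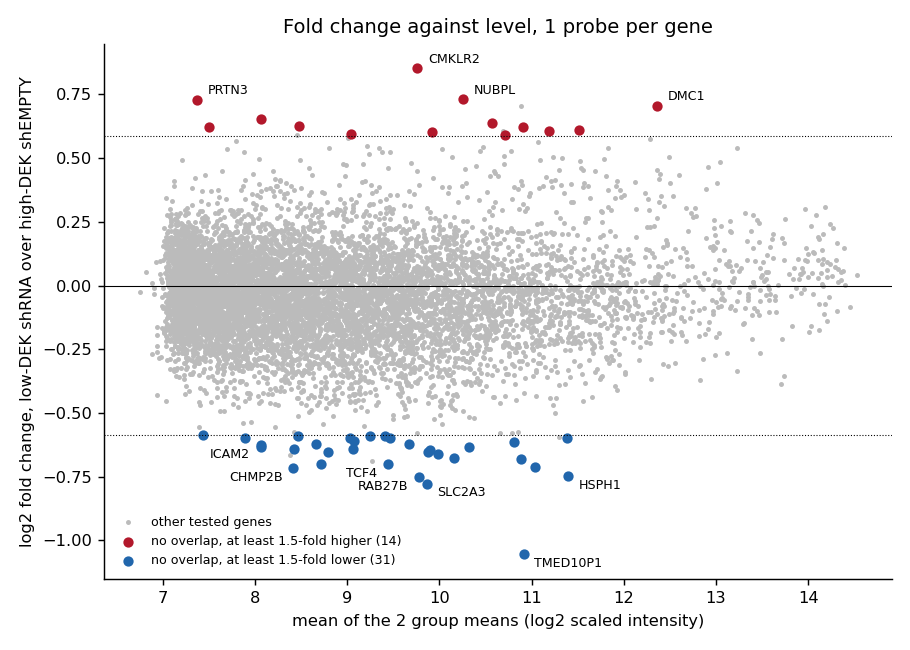
Log2 fold change of the low-DEK shRNA libraries over the shEMPTY libraries against the mean level of each gene (log2 scaled intensity), 1 point for each of the 8610 genes tested. Colour marks the 14 higher and 31 lower genes without overlap and at least 1.5-fold apart, and dotted lines mark 1.5-fold.

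The study checked 4 genes by PCR that it had picked as changed on its own U937 arrays. It gave CSF2RA and CSF3R as higher and ICAM2 and CHMP2B as lower after knockdown. Their direction on these arrays is therefore not independent of that choice. The adhesion molecule ICAM2 and the ESCRT-III subunit CHMP2B, a part of the machinery that pinches off membranes, were lower without overlap in the low-DEK shRNA libraries. ICAM2 (log2 scaled intensity, as for all levels below) was 7.62, 7.71 and 7.91 in shDEK14 replicate 2, shDEK17 replicate 1 and shDEK17 replicate 3, the order used for all genes below, against 8.47 and 8.28 in the shEMPTY libraries. The log2 fold change was -0.63 ± 0.15 (SE; limma adjusted p of 0.871). The highest low-DEK shRNA library stayed below the lowest shEMPTY library. CHMP2B was 7.96, 7.97 and 8.25, against 8.83 and 8.72 in the shEMPTY libraries. Its log2 fold change was -0.72 ± 0.15 (SE; limma adjusted p of 0.871). CSF2RA, the alpha subunit of the GM-CSF receptor, was 11.27, 11.84 and 11.47, against 11.17 and 11.16, so it was higher without overlap at 0.36 ± 0.17 (SE; limma adjusted p of 0.983). Its 3 other kept probes had log2 fold changes of 0.26, 0.55 and 0.08. CSF3R, the G-CSF receptor, overlapped, with 9.99, 9.61 and 10.24, against 10.18 and 9.70. Its log2 fold change was 0.01 ± 0.21 (SE), with a negative sign when shDEK14 replicate 2, shDEK17 replicate 3 or shEMPTY replicate 3 was left out (-0.01, -0.14 and -0.23).

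TMED10P1 had the lowest p of all genes and was lower without overlap. Its probe gave 10.48, 10.14 and 10.53 in the low-DEK shRNA libraries, against 11.48 and 11.40 in the shEMPTY libraries, a log2 fold change of -1.05 ± 0.16 (SE; limma adjusted p of 0.417). TMED10P1 is named as a pseudogene of TMED10, a p24 cargo receptor that cycles between the endoplasmic reticulum and the Golgi. RNA of either could bind the probe, so the assignment is uncertain. The probe of TMED10 itself gave 9.32, 9.44 and 9.88, against 10.09 and 10.31 (-0.65 ± 0.18). TMED5, a further member of the p24 family, gave 9.58, 9.86 and 10.03, against 10.45 and 10.56 (-0.68 ± 0.16). For these 3 genes, the groups were separate by at least the gap between 9.88 and 10.09 seen for TMED10.

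RAB27B, a small GTPase of secretory vesicles, was 9.23, 9.27 and 9.71 in the low-DEK shRNA libraries, against 10.12 and 10.20 in the shEMPTY libraries (-0.75 ± 0.17). RTN4, a reticulon that shapes the tubules of the endoplasmic reticulum, was 10.51, 10.63 and 10.48, against 11.07 and 11.38 (-0.68 ± 0.15). A further probe of RTN4 gave the same log2 fold change of -0.68. VPS37A, a subunit of ESCRT-I, was 8.02, 8.68 and 8.69, against 9.01 and 9.22 (-0.65 ± 0.21). Its other probe had -0.37, also without overlap. In VPS37A, shDEK14 replicate 2 was the lowest of the 5 and the 2 shDEK17 libraries were close to each other. Of the 12 tested members of the ESCRT-III list, 2 were lower without overlap (16.7% against 13.3% of all genes) and 0 higher: CHMP2B and CHMP4B (-0.24 ± 0.14). The list median was -0.02, against -0.04 for all genes.

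SLC2A3, the glucose transporter GLUT3, was 9.29, 9.38 and 9.75 in the low-DEK shRNA libraries, against 10.41 and 10.09 in the shEMPTY libraries, a log2 fold change of -0.78 ± 0.17 (SE; limma adjusted p of 0.871). Of the other genes of glycolysis and hypoxia, PFKL, the liver form of phosphofructokinase, had -0.40 ± 0.15 and BNIP3L, a mitophagy receptor, -0.38 ± 0.14, both without overlap. The other probe of BNIP3L had -0.07 and overlapped. PFKFB4, which makes an activator of phosphofructokinase, had 0.18 ± 0.13. In all, 3 of 26 tested members of that list were lower without overlap (11.5% against 13.3% of all genes) and 1 was higher (3.85% against 7.27%). The list median was -0.04.

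The genes lower by the most also included TCF4 and DDX21. TCF4, a basic helix-loop-helix factor of lymphoid and plasmacytoid dendritic cells, was 8.99, 9.27 and 9.01 in the low-DEK shRNA libraries, against 9.83 and 9.76 in the shEMPTY libraries (-0.70 ± 0.15). DDX21, a nucleolar RNA helicase, was 10.51, 10.76 and 10.76, against 11.07 and 11.71 (-0.71 ± 0.19), and the 2 shEMPTY libraries differed from each other more than any of the low-DEK shRNA libraries did. G3BP2, a stress granule protein that binds RNA, was 9.54, 9.57 and 9.62, against 10.36 and 10.08 (-0.64 ± 0.14). Its 2 other kept probes had log2 fold changes of -0.89 and -1.03, also without overlap. BRWD1, a bromodomain protein, had -0.70 ± 0.18 on 1 probe and -0.08 on the other, and UHMK1, a kinase of splicing factors, -0.66 ± 0.15 and -0.11, so that the probes of these 2 genes disagreed. LRRC58 had -0.64 ± 0.17 and -0.26 on its 2 probes. The limma adjusted p of each of these 6 genes was 0.871 or 0.936.

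Genes that were higher in the low-DEK shRNA libraries were of mixed function. CMKLR2, a receptor for chemerin, had the largest log2 fold change among them. It was 9.78, 10.13 and 10.64 in the low-DEK shRNA libraries, against 9.43 and 9.24 in the shEMPTY libraries (0.85 ± 0.22, SE; limma adjusted p of 0.936). The low-DEK shRNA libraries were 0.44 (SD, n = 3) apart around their mean of 10.18, and the lowest of them was shDEK14 replicate 2. NUBPL, an assembly factor of respiratory complex I, was 10.34, 10.58 and 10.94, against 9.88 and 9.89 (0.73 ± 0.18). DMC1, the meiotic recombinase, was 12.47, 12.78 and 12.88, against 12.24 and 11.76 (0.71 ± 0.18). ZDHHC11, a palmitoyltransferase of the DHHC family, was 8.34, 8.47 and 8.37, against 7.74 and 7.74 (0.66 ± 0.13), with little spread in either group.

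MAGT1, a magnesium transporter that also serves N-glycosylation, had 0.64 ± 0.19 and STRIP2, a subunit of the striatin-interacting phosphatase and kinase complex, 0.63 ± 0.24. STRIP2 was 8.31, 9.31 and 8.76 in the low-DEK shRNA libraries, against 8.17 and 8.16 in the shEMPTY libraries, so that shDEK14 replicate 2 lay just above the shEMPTY libraries. HYPK, a chaperone-like partner of an N-terminal acetyltransferase, had 0.62 ± 0.16 on 1 probe and 0.04 on its other. PPA2, the mitochondrial pyrophosphatase, had 0.61 ± 0.16 and -0.09. The probes of these 2 genes thus disagreed. COL7A1, a collagen of anchoring fibrils, had 0.62 ± 0.15, SLC71A3P 0.61 ± 0.14, MIGA1, a factor of mitochondrial fusion, 0.60 ± 0.20, RHBDL2, a rhomboid protease, 0.60 ± 0.15, the divergent transcript PAXIP1-DT 0.59 ± 0.16 and MINDY1, a deubiquitinase, 0.58 ± 0.19. SLC71A3P is named as a pseudogene, so related transcripts could bind its probe.

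**Figure D3:**
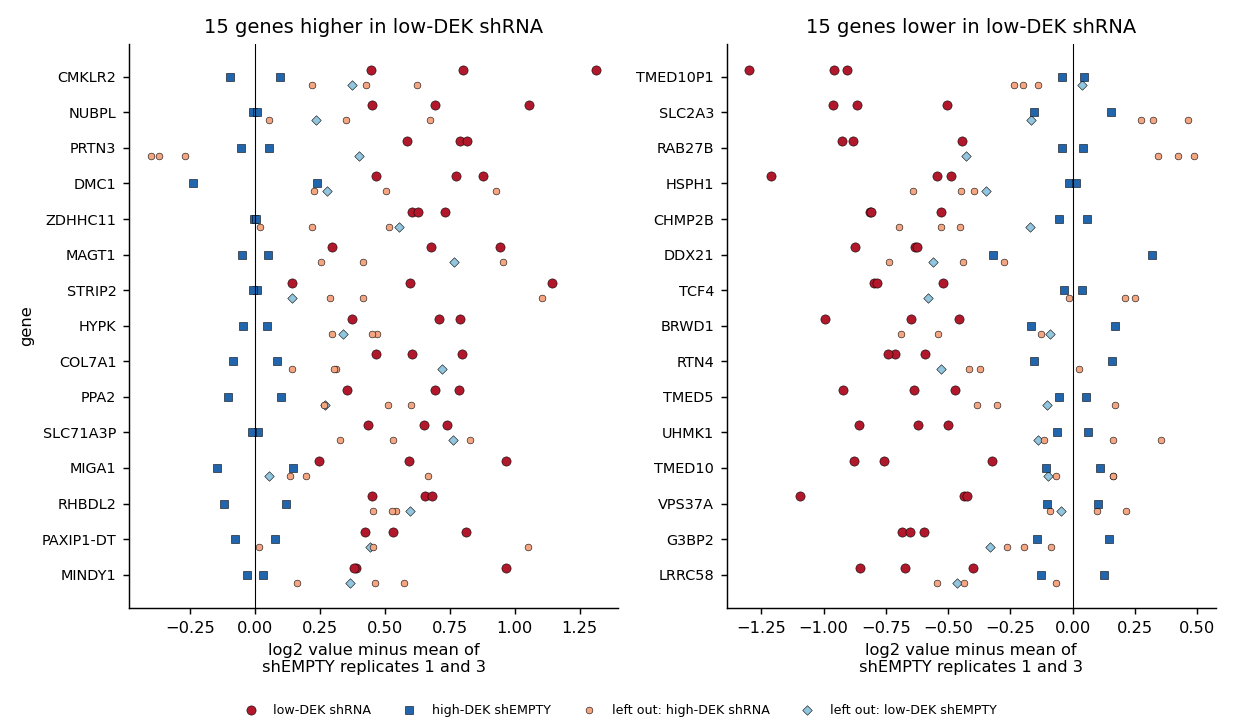
Log2 value of each library minus the mean of shEMPTY replicates 1 and 3 for the 15 genes named as higher (left) and the 15 named as lower (right), 1 symbol per library. In each of the 30 genes the 3 low-DEK shRNA libraries (red) lie on 1 side of both shEMPTY libraries (blue squares), while the libraries left out (small symbols) lie on either side.

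Azurophil granule and neutrophil proteins had the highest median of the lists with 10 or more tested members. Of 15 tested members, 4 were higher without overlap and 0 lower (26.7% against 7.27% of all genes), 13 had a log2 fold change above 0, and the median was 0.13, against -0.04 for all genes. The probe filter bears on this count. Of the 13 members detected on all arrays of either group, 2 were higher without overlap, beside 7.18% of all genes, and the median was again 0.13. These 2 were CFD and PRTN3, and PRTN3 passed that filter only through the low-DEK shRNA arrays. With all 9 libraries grouped by label alone, 12 of the 15 lay below 0 and the median was -0.14. PRTN3, the serine protease proteinase 3, was 7.80, 7.60 and 7.83 in the low-DEK shRNA libraries, where it was detected on all arrays, against 7.06 and 6.96 in the shEMPTY libraries, where it was detected on none. It was therefore at least 1.48-fold higher, with a limma adjusted p of 0.871. The bound sets its mean against the higher of its own value and the lowest detected value on each shEMPTY array. CFD, complement factor D, was 9.61, 9.57 and 9.85, against 9.53 and 8.90 (0.46 ± 0.19). The lowest low-DEK shRNA value was close to shEMPTY replicate 1.

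ELANE, neutrophil elastase, was 7.20, 7.25 and 7.34 in the low-DEK shRNA libraries, detected on 2 of them, against 7.01 and 6.86 in the shEMPTY libraries, detected on none. MS4A3, a surface protein of granulocyte and monocyte progenitors, was 7.26, 7.26 and 7.29, detected on 2 arrays, against 7.20 and 6.82, detected on 1. Both lay close to the detection limit and were detected on more low-DEK shRNA than shEMPTY arrays, as PRTN3 was. The granule proteins at high signal differed less: MPO, myeloperoxidase, was 12.85, 12.63 and 12.74, against 12.67 and 12.60 (0.10 ± 0.14), and CTSG, cathepsin G, was 10.07, 9.54 and 9.72, against 9.84 and 9.08 (0.32 ± 0.23), both with overlap. Without any 1 of the 5 libraries, 11 to 13 of the 15 members stayed above 0, and the median was 0.07 without shEMPTY replicate 3 and 0.25 without shDEK17 replicate 3.

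Cytosolic heat shock proteins, the chaperones that fold and hold cytosolic proteins, had the largest share of members lower without overlap among the lists with 10 or more tested members. Of 29 tested members, 8 were lower without overlap and 0 higher (27.6% against 13.3% of all genes). HSPH1, an exchange factor of the HSP70 family, was 11.22, 10.56 and 11.28 in the low-DEK shRNA libraries, against 11.75 and 11.78 in the shEMPTY libraries (-0.75 ± 0.21, SE; limma adjusted p of 0.965). HSP90AA1, the inducible cytosolic HSP90, was 13.62, 13.46 and 13.60, against 13.89 and 13.94 (-0.36 ± 0.14), and its 2 other kept probes had -0.47 and -0.58. All 3 probes of HSP90AA1 were without overlap. The HSP40 co-chaperones DNAJB6 and DNAJA1 had -0.43 ± 0.15 (0.09 on a further probe of DNAJB6) and -0.33 ± 0.14, and HSPB1, CHORDC1, PTGES3 and CCT4 lay between -0.30 and -0.28. Over the whole list, however, 10 of 29 members were above 0 and the median was -0.09.

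That median depended on 1 library. Relative to the average of the 5 compared libraries, the heat shock list had a mean deviation of -0.271 in shDEK17 replicate 1, -0.0281 in shDEK14 replicate 2 and 0.17 in shDEK17 replicate 3, against 0.0434 and 0.085 in the shEMPTY libraries. Of the 3 low-DEK shRNA libraries, 1 thus lay above both shEMPTY libraries. Without shDEK17 replicate 1 the list median was 0.00 and 14 of 29 members were below 0. In that setting 8 of the 29 members were lower without overlap, beside 24.7% of all genes. Without shDEK17 replicate 3 the median was -0.20.

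The same library was the lowest of the 5 for the proteasome and for MYC and ribosome biogenesis genes. Of 31 tested proteasome subunits, 6 were lower without overlap (19.4% against 13.3% of all genes) and 0 higher, 24 were below 0 and the median was -0.10. PSMC3, an ATPase of the regulatory particle, was 10.14, 9.60 and 10.19 in the low-DEK shRNA libraries, against 10.53 and 10.29 in the shEMPTY libraries (-0.43 ± 0.19). PSMA2 of the core ring had -0.38 ± 0.16, and PSMB6, the core subunit with caspase-like activity, -0.29 ± 0.15. Without shDEK17 replicate 1 the proteasome median was -0.03, with 17 of 31 members below 0. For MYC and ribosome biogenesis, 2 of 33 members were lower without overlap, fewer in share than over all genes, but 29 were below 0 with a median of -0.12. NOP58, a core protein of box C/D small nucleolar ribonucleoproteins, had -0.34 ± 0.17, and WDR12, a factor of large ribosomal subunit maturation, -0.20 ± 0.14. The list mean deviated by -0.346 in shDEK17 replicate 1, -0.0208 in shDEK14 replicate 2 and 0.224 in shDEK17 replicate 3, against 0.109 and 0.0333 in the shEMPTY libraries. Without shDEK17 replicate 1 the median was 0.04.

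Of 49 tested cytosolic ribosomal proteins, 6 were higher without overlap (12.2% against 7.27% of all genes) and 0 lower, with RPL37 at 0.36 ± 0.14, RPL14 at 0.28 ± 0.15, RPL11 at 0.28 ± 0.14 and RPL4 at 0.27 ± 0.13. The other probes of RPL14 and RPL11 had -0.08 and 0.22 and overlapped. The list median was 0.05 and 31 members were above 0. Without shEMPTY replicate 3 the median was -0.01, and without shDEK14 replicate 2 it was near 0, with 24 members above 0 and 25 below. Ribosomal protein transcripts have many processed pseudogenes, so related transcripts could bind their probes.

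**Figure D4:**
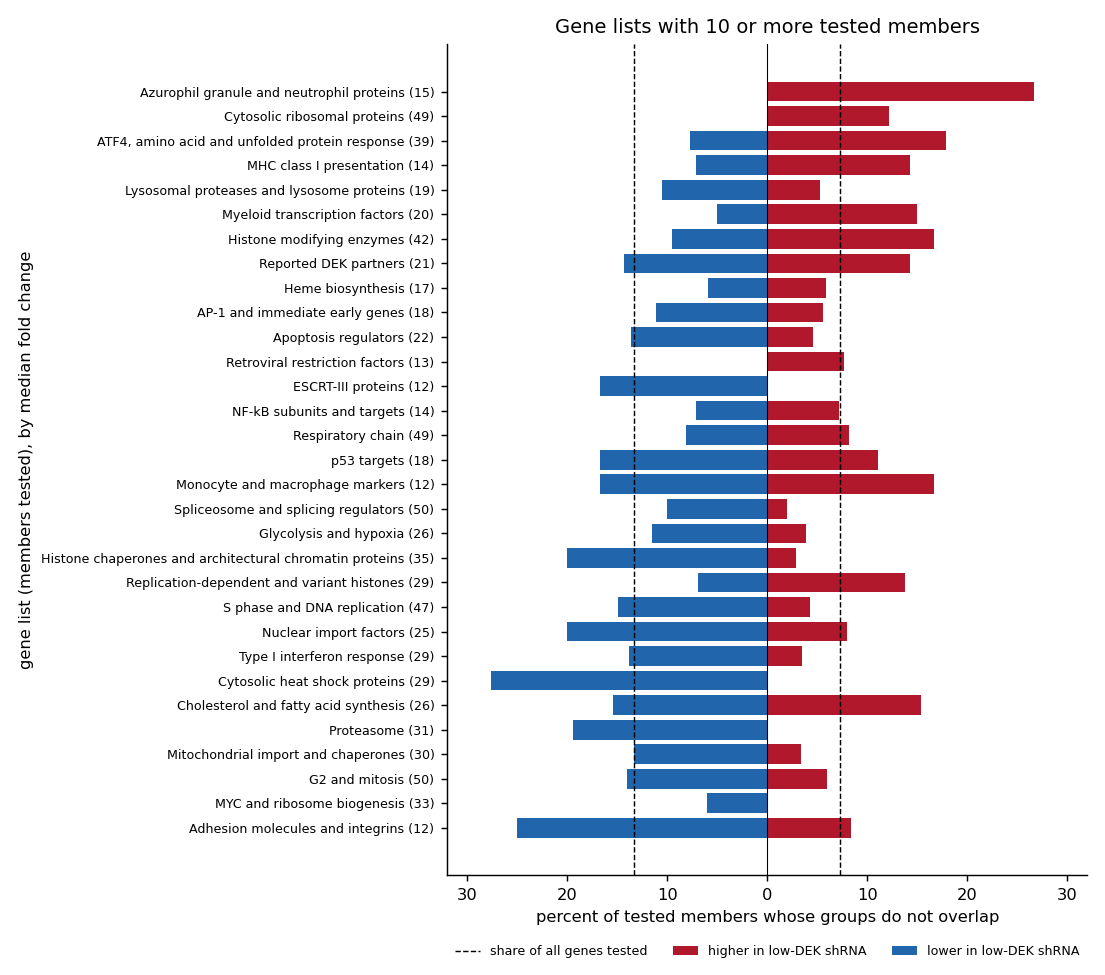
Percent of the tested members of each gene list that were higher (right, red) or lower (left, blue) in the low-DEK shRNA libraries without overlap, for lists with 10 or more tested members, whose number is in parentheses, ordered by their median log2 fold change. Dashed lines give the shares over all genes tested, 7.27% higher and 13.3% lower; heat shock proteins reach 27.6% lower and azurophil granule proteins 26.7% higher.

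Genes of G2 and mitosis were lower without overlap for 7 of 50 tested members and higher for 3, shares close to those of all genes, with a median of -0.11. MAD2L1, the spindle checkpoint protein MAD2, was 10.48, 10.45 and 10.59 in the low-DEK shRNA libraries, against 11.06 and 11.18 in the shEMPTY libraries (-0.62 ± 0.14, SE; limma adjusted p of 0.871). Its other probe had -0.61. SPC25, a kinetochore subunit, was 8.47, 9.21 and 9.06, against 9.44 and 9.34 (-0.48 ± 0.21 and, on its other probe, -0.35). CCNA2, cyclin A2, had -0.44 ± 0.17, and CDK1, its mitotic kinase partner, -0.38 ± 0.15 on 1 probe and -0.10 on the other. Without shEMPTY replicate 3 the list median was -0.03. Among the 47 tested genes of S phase and DNA replication, 7 were lower without overlap (14.9%) and 2 higher (4.26%), and the median was -0.07. Without shEMPTY replicate 1 the median was 0.01, with 26 of 47 members above 0. RPA2, a subunit of the single-strand binding protein, had 0.33 ± 0.14. RFC2, a clamp loader subunit, had -0.43 ± 0.15 on 1 probe and -0.10 on the other, and ORC6 of the origin recognition complex 0.31 ± 0.15 and -0.11, so that the probes of these 2 genes disagreed.

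Genes of chromatin, the setting in which DEK acts, showed no common direction. Of 35 histone chaperones and architectural chromatin proteins, 7 were lower without overlap (20% against 13.3% of all genes) and 1 higher (2.86% against 7.27%), with a median of -0.04. NASP, a chaperone of linker and core histones, was 8.70, 8.93 and 8.84 in the low-DEK shRNA libraries, against 9.13 and 9.12 in the shEMPTY libraries (-0.30 ± 0.14). SMARCA5, the ATPase of ISWI remodellers, had -0.27 ± 0.15 (-0.35 on an overlapping further probe), HMGN2, a nucleosome-binding protein, -0.26 ± 0.13 (-0.11 and -0.40 on 2 others) and ASF1A, a chaperone of histones H3 and H4, -0.24 ± 0.14. Of 29 histone genes, 4 were higher (13.8% against 7.27% of all genes) and 2 lower without overlap (6.9% against 13.3%), while 20 were below 0. H2AC18 had 0.46 ± 0.14 on 1 probe and 0.03 on the other and H2BC9 -0.54 ± 0.21, and histone genes of 1 class are so alike that their probes may not tell them apart.

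Of 42 histone modifying enzymes, 7 were higher (16.7% against 7.27% of all genes) and 4 lower without overlap (9.52% against 13.3%), with a median of 0.01. The methyltransferases SETD2 and PRMT1 had 0.26 ± 0.15 and -0.38 ± 0.22. Among 21 genes whose proteins have been reported to bind or act with DEK, 3 were higher and 3 lower without overlap. Each was 14.3% of the list, against 7.27% of all genes higher and 13.3% lower. The acetyltransferase CREBBP had -0.30 ± 0.15, the deacetylase HDAC2 -0.25 ± 0.14, the splicing factor SRSF2 0.23 ± 0.14 and the transcription factor CEBPA 0.13 ± 0.13. Of 50 spliceosome genes and splicing regulators, 5 were lower (10% against 13.3% of all genes) and 1 higher (2% against 7.27%). Among them were SRSF7 (-0.39 ± 0.13) and SRSF10 (-0.38 ± 0.17, and -0.14 on its other probe). Of 7 tested genes of 7SK and P-TEFb, 2 were lower (28.6% against 13.3% of all genes). They were CCNT1, the cyclin of the elongation factor P-TEFb, with -0.40 ± 0.17 (-0.20 on its other probe), and CCNT2 with -0.26 ± 0.14, detected on 1 of the 3 low-DEK shRNA arrays.

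Nuclear import factors were lower without overlap for 5 of 25 members (20% against 13.3% of all genes) and higher for 2 (8% against 7.27%). RANBP6, an importin-beta family member, was 8.54, 8.32 and 8.53 in the low-DEK shRNA libraries, against 8.85 and 9.17 in the shEMPTY libraries (-0.54 ± 0.15, and -0.21 on its other probe), and KPNB1, importin beta itself, had -0.32 ± 0.17. Genes of cholesterol and fatty acid synthesis went both ways. Of 26 members, 4 were higher without overlap (15.4% against 7.27% of all genes) and 4 lower (15.4% against 13.3%). In that pathway HSD17B7 and FDPS had 0.50 ± 0.17 and 0.39 ± 0.16, and MSMO1 and NSDHL -0.52 ± 0.22 and -0.32 ± 0.14. The 2 other probes of MSMO1 had -0.48 and 0.07. Genes of ATF4, amino acid supply and the unfolded protein response were higher without overlap for 7 of 39 members (17.9% against 7.27% of all genes) and lower for 3 (7.69% against 13.3%), with ATF4 at 0.29 ± 0.16 and the tRNA synthetase EPRS1 at 0.30 ± 0.14. Their median was 0.04. Of 49 respiratory chain genes, 4 were higher (8.16% against 7.27% of all genes) and 4 lower (8.16% against 13.3%). Of 30 genes of mitochondrial import, 4 were lower and 1 higher (13.3% and 3.33%), with a median of -0.10. Without shDEK17 replicate 1 that median was 0.04, with 16 of 30 members above 0.

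Myeloid identity genes gave no common direction either. Of 12 monocyte and macrophage markers, 2 were higher without overlap (CD4 at 0.37 ± 0.14 and LILRB1 at 0.30 ± 0.16) and 2 lower (the scavenger receptor CD36 at -0.38 ± 0.16 and the integrin ITGAM at -0.34 ± 0.16). Each pair was 16.7% of the list, against 7.27% of all genes higher and 13.3% lower. Of 20 myeloid transcription factors, 3 were higher (15%) and 1 lower (5%). The probe filter bears on this count. NFE2, a leucine zipper factor, and KLF2 were detected on all low-DEK shRNA arrays and on no shEMPTY array. The low-DEK shRNA arrays alone were thus enough for them to pass the filter, and both are among the 3. They were at least 1.22-fold and 1.10-fold higher. HHEX had -0.31 ± 0.15. Among 9 growth factor receptors, 2 were higher (22.2%) and 1 lower (11.1%), and among 12 adhesion molecules 1 was higher (8.33%) and 3 lower (25%). In the type I interferon response, 4 of 29 genes were lower (13.8%) and 1 higher (3.45%), with a median of -0.09. LY6E had -0.32 ± 0.14 and ISG20 0.30 ± 0.14.

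Each of the remaining lists with 3 or more tested genes had 0 to 3 members without overlap in each direction. Their tested members are given with the shares higher and lower, against 7.27% and 13.3% of all genes. S100 proteins had 6 (0% and 0%), phagocyte oxidase 6 (0% and 16.7%), HOX and TALE genes 5 (20% and 0%) and MHC class I 14 (14.3% and 7.14%). MHC class II had 5 (20% and 20%), immediate early genes 18 (5.56% and 11.1%), NF-kB 14 (7.14% and 7.14%) and p53 targets 18 (11.1% and 16.7%). Apoptosis had 22 (4.55% and 13.6%), heme synthesis 17 (5.88% and 5.88%), lysosome proteins 19 (5.26% and 10.5%) and retroviral restriction factors 13 (7.69% and 0%). The lowest value among the members of these lists without overlap was -0.56 ± 0.16 for SIDT2, a lysosomal membrane protein. Of the markers of other cells, 0 epithelial and fibroblast genes, 1 erythroid gene, 2 T and NK cell genes, 2 B cell genes and 2 genes of the virus packaging line could be tested. Of these, NKG7 (-0.34 ± 0.14) and CD79B (-0.45 ± 0.14) were lower without overlap, while CD3E, CD3D and MS4A1 were undetected, as given above.

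**Figure D5:**
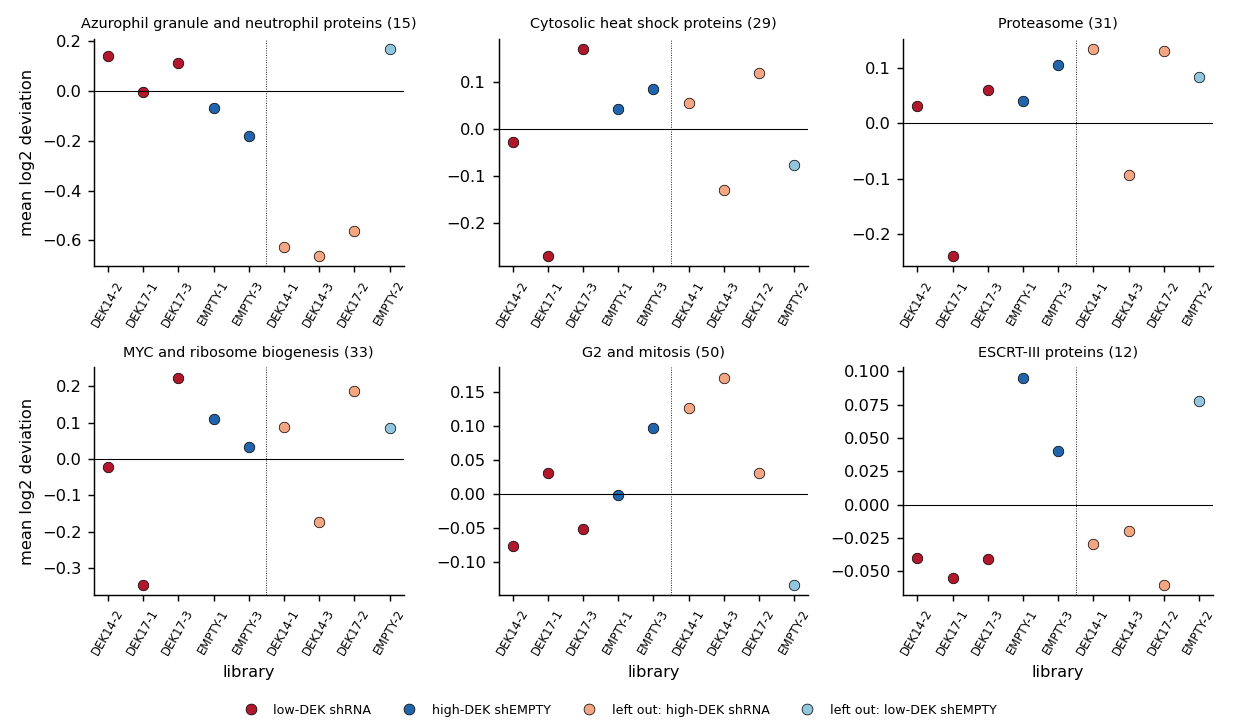
Mean log2 deviation of 6 gene lists from the mean of the 5 compared libraries, 1 point per library, with the number of tested members in parentheses and the libraries left out to the right of the dotted line. Axes differ between panels. In shDEK17 replicate 1 the heat shock (-0.271), proteasome (-0.239) and MYC (-0.346) lists lie lowest of the 5, and the ESCRT-III list lies below both shEMPTY libraries in all 3 low-DEK shRNA libraries.

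The 2 hairpins could be set side by side only as single libraries. In 12 of the 45 genes at least 1.5-fold apart, shDEK14 replicate 2 lay between the 2 shDEK17 libraries, in 30 it lay below both and in 3 above both. It was the lowest of the 3 for most of these genes, among those that were higher as well as those that were lower. With 1 shDEK14 library of low DEK, the difference between hairpins was not tested.

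In the libraries left out, some genes lay with the libraries of the same label and others with those of a like DEK signal. In ICAM2 and CHMP2B, the 3 libraries labelled with an shRNA but high in DEK had 7.93, 7.94 and 7.89, and 8.08, 8.32 and 8.25, in shDEK14 replicates 1 and 3 and shDEK17 replicate 2. These values were near those of the low-DEK shRNA libraries, and shEMPTY replicate 2, with low DEK, had 8.51 and 8.61, near the other shEMPTY libraries. The study had picked both genes as lower after knockdown on its U937 arrays, so that their following the label was partly set by that choice. HSPH1 and STRIP2 were also on 1 side in all 6 libraries labelled with an shRNA, but by narrow margins. HSPH1 was 11.37 in shDEK14 replicate 3 and 11.42 in shEMPTY replicate 2. STRIP2 was 8.307 in shDEK14 replicate 2 and 8.304 in shEMPTY replicate 2. In SLC2A3, RAB27B and TCF4, by contrast, the 3 high-DEK shRNA libraries lay with the shEMPTY libraries or above them, at 10.71, 10.52 and 10.57 for SLC2A3, 10.64, 10.50 and 10.58 for RAB27B and 10.00, 10.04 and 9.78 for TCF4. In shEMPTY replicate 2 these genes were 10.08, 9.73 and 9.21, each below all 5 libraries of high DEK. For SLC2A3 the margin was narrow. Its 10.08 lay next to the 10.09 of shEMPTY replicate 3 and above the 9.75 of the highest low-DEK shRNA library.

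TMED10P1 held an intermediate place. It was 11.20, 11.24 and 11.30 in the high-DEK shRNA libraries, above the 10.53 of the highest low-DEK shRNA library and just below the shEMPTY libraries, and 11.48 in shEMPTY replicate 2. The 3 libraries that had both the shRNA label and a low DEK signal were thus the lowest of the 9. PRTN3 was 6.61, 6.64 and 6.74 in the high-DEK shRNA libraries, below the shEMPTY libraries, and 7.41 in shEMPTY replicate 2. The granule list as a whole deviated by -0.627, -0.663 and -0.564 in the high-DEK shRNA libraries and by 0.169 in shEMPTY replicate 2, so that low-DEK and high-DEK libraries with an shRNA label lay on opposite sides of the shEMPTY libraries compared. CTSG was 7.62, 7.63 and 7.46 there, below the 5 compared libraries. CSF3R was also below them in the 3 high-DEK shRNA libraries, with 8.43 and 8.98 in shDEK14 replicates 1 and 3.

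Counted over the genes at least 1.5-fold lower, 4 of 31 separated all 6 shRNA labels from all 3 shEMPTY labels, with TMED10P1 as well as ICAM2, CHMP2B and HSPH1, and in 15 the low-DEK shRNA libraries lay below all 5 libraries of high DEK. In 9 of these 15, shEMPTY replicate 2 did so too: SLC2A3, RAB27B, TCF4, RTN4, UHMK1, G3BP2, MAD2L1, NUS1, which serves the synthesis of dolichol, and AP1S2, a subunit of the AP-1 clathrin adaptor. The margin was narrow for SLC2A3 and for UHMK1, which was 10.18 in shEMPTY replicate 2 and 10.21 in shDEK17 replicate 2. Over all 1149 genes lower without overlap, 18.8% separated the labels in this way, against 12.9% of the 31. The low-DEK shRNA libraries lay below all 5 of high DEK in 23.4%, against 48.4% of the 31. In 10.4%, against 29% of the 31, shEMPTY replicate 2 did so too. Of the 14 genes at least 1.5-fold higher, 1 followed the label in all 9 libraries (STRIP2, by a narrow margin). In 3, all 4 libraries of low DEK were higher than all 5 of high DEK (PRTN3, ZDHHC11 and COL7A1). The corresponding shares over the 626 genes higher without overlap were 11.3% and 13.3%. Of these 14 genes, 4, 12 and 7 lay nearer to the low-DEK shRNA mean in shDEK14 replicate 1, shDEK14 replicate 3 and shDEK17 replicate 2, and 8 in shEMPTY replicate 2. Over the 626 genes the shares were 51.1%, 63.4% and 47.9% in those shRNA libraries and 61.7% in shEMPTY replicate 2. These patterns were read off libraries that the comparison did not use and were not tested.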

How the data were processed

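Total RNA of U937 cells was measured on Illumina HumanHT-12 v4 arrays. The authors deposited the mean bead intensity of 47323 probes per array, not normalized, and a detection p-value against 770 negative controls. A second table deposited by the authors holds these intensities multiplied by 1 factor per array, so that every array has a mean of 406.2. No scanner software is named in the sources used here. Depth has no counterpart on arrays, and the number of arrays limits the precision.

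The scaled intensities were log2-transformed. A probe was kept where 3 or more of the 9 arrays had a detection p under 0.01 (14230 probes). Names came from the platform annotation (30113 probes with 1 gene symbol, 8 with several, 17202 unnamed), of which 30074 were updated through RefSeq, and 1 probe per gene, that of highest mean, was tested. DEK was left out, leaving 8610 genes. Low-DEK shRNA libraries (n = 3) were compared with shEMPTY libraries (n = 2) in limma 3.58.1 (R 4.3.3), with 3 residual degrees of freedom and Benjamini-Hochberg adjustment at 0.05. Errors of fold changes are SE. A gene not detected on any array of a group was given as a bound.

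The compared libraries, the 42 gene lists (853 of 1164 genes tested) and the rules were chosen with earlier results of these data known, and several lists name themes drawn by the study from these samples. Named genes were the 4 checked by PCR in the study, up to 15 per direction without overlap and detected throughout the higher group, ranked by size, and up to 4 such members of each list; NUS1 and AP1S2, and the granule and heat shock members beyond 4, were named after their values were seen. Alternatives covered background correction, normalization, the probe filter, all kept probes, the replicate number as a block, all 9 arrays, a variance trend, the methods' t-test and leaving out each library. The fit was tested on simulated data.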

Additional observations from a re-analysis of the deposited data

Results flagged for a closer look

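Signals in libraries outside the comparison lay above the shEMPTY libraries compared by more than the range of all 5 compared libraries in 11 cases. They are given as the mean log2 difference from shEMPTY replicates 1 and 3 over the tested members of a list. In shEMPTY replicate 2 the type I interferon response was 2.29 higher, MHC class I presentation 0.786, retroviral restriction factors 0.517 and p53 targets 0.122. In shDEK17 replicate 2 the phagocyte oxidase was 0.507 higher, monocyte and macrophage markers 0.318 and S100 proteins 0.306. S100 proteins were 0.297 higher in both shDEK14 replicates 1 and 3, and reported DEK partners 0.123 and 0.0968 higher in the same 2 libraries. The groups compared held 3 and 2 libraries, too few for a search for single outlying values.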

How the results depend on the processing

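No alternative other than the crossed block below gave a gene past the threshold: the count was 0 in both directions, with lowest adjusted p from 0.0666 (all 9 arrays in the fit, TMED10P1) and 0.0925 (all kept probes, an unnamed probe) to 0.9998 (replicate block). Genes without overlap and at least 1.5-fold apart numbered 103 higher and 116 lower with neqc, 44 higher with normexp at an offset of 50, 20 lower with quantile normalization, 18 lower with median centring, 25 higher probes (15 genes) over all kept probes counted one by one, 29 higher and 20 lower with the replicate block, and 0 higher and 3 lower (ICAM2, LY6E and TMED10P1) with all 9 libraries grouped by label alone. LY6E was 12.54 in shEMPTY replicate 2, against 10.42 and 10.40 in shEMPTY replicates 1 and 3. Leaving out 1 library gave 9 to 41 higher (lowest without shDEK17 replicate 1, highest without shDEK14 replicate 2). It gave 20 to 157 lower (lowest without shDEK14 replicate 2, highest without shEMPTY replicate 1), each a comparison of fewer libraries. CSF3R turned negative under the replicate block (-0.013) and by label alone (-0.78), and leaving out 1 library gave -0.23 (without shEMPTY replicate 3) to 0.24 (without shEMPTY replicate 1); the cause was not tested. By label alone 10 further named genes changed sign: CFD (-0.53), PSMB9 (-0.29), ISG20 (-0.25), GUSB (-0.15), CCL5 (-0.11), PFKFB4 (-0.074), CD4 (-0.014), BIRC2 (0.015), HDAC2 (0.031) and HLA-DRA (0.034). The other 125 of the 136 genes that the rule named kept their sign under the alternatives run.

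With the replicate number, which the column names give as an experiment number, as a block, in which shDEK14 replicate 2 has no partner, 0 genes passed in either direction. Same-numbered libraries deviated in opposite ways (r = -0.423), and whether the numbers pair the libraries was not settled. The crossed replicate block, chosen after seeing the data, gave 35 higher and 18 lower calls. With 3 against 2 arrays, signals near the negative controls limit PRTN3, ELANE, NFE2 and KLF2 to bounds.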
